A study of Mus musculus with 36 samples.

Results

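The comparison described here is that of 6 libraries labelled NOS1 KO with 6 libraries labelled WT, all from mouse macrophages that had been given lipopolysaccharide (LPS) for 8 h. They are 12 of the 36 samples of the series and were taken by their labels: treatment LPS, time 8h, and a genotype label of NOS1 KO or BMDM NOS1 KO on one side and of WT or BMDM WT on the other. The cells are bone marrow-derived macrophages (BMDM), which were cultured for 5 days in medium with M-CSF (macrophage colony-stimulating factor) at 20 ng/mL. LPS was used at 100 ng/mL, and RNA was counted per gene by sequencing. The design text of the series spells the wild type strain C65BL6. The labels name no knockout allele, strain background of the knockout, animal, age or batch, and the BMDM prefix in the genotype label marks 1 library on each side. Groups of 6 control libraries and 6 libraries with LPS for 2 h per genotype label entered the fit and serve below as a comparison.

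Nitric oxide synthases make nitric oxide from arginine. NOS1 is the neuronal enzyme, and NOS2 is the inducible one that macrophages make in quantity after LPS. LPS is bound by CD14 and Toll-like receptor 4, which activate NF-kB and the mitogen-activated protein kinases and so turn on Tnf, Il1b, Il6 and the chemokines that draw in neutrophils; a slower arm makes interferon beta, which acts back on the cell through JAK and STAT proteins to turn on the interferon-stimulated genes. SOCS proteins damp this signalling, NRF2 drives the genes of glutathione and thioredoxin metabolism, and SREBP proteins drive those of cholesterol and fatty acid synthesis.

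Nos1 itself went against the genotype label. Nos1 (ENSMUSG00000029361, chr5:117781032-117958840, mm10) had between 10 and 22 counts in each of the 6 KO-labelled libraries. The WT-labelled libraries had 0, 0, 0, 0, 1 and 8 counts, the last in replicate 5. The groups did not overlap, and the label KO therefore goes with the higher number of Nos1 reads in all 12 libraries. Counts summed over a gene cannot tell where in the gene these reads lie, nor whether a protein could be made from them. The names KO-labelled and WT-labelled are used below because of this, and every direction is that of the labels.

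The libraries of each group also fell into 2 unlabelled sets of 3. The first principal component of all 36 libraries, with each group's mean removed, held 34.6% of the variance and put replicates 1, 2 and 6 of each group on one side (set A) and replicates 3, 4 and 5 on the other (set B). At 8 h, the chi-square per gene between 2 libraries of the same label had a median of 60.5 across the sets, 13.9 within set A and 3.19 within set B. The sets were found from these counts and are not the study's groups, so the values of each set are given beside the pooled ones. The fit with a mean for each group and set takes this split out of the spread among libraries. Because the split came from the same counts, p-values within the sets may be too small. No label says that libraries came from separate cultures or animals, so a p-value here rests on the spread among libraries only, and that spread may be technical.

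Library totals ran from 11458351 to 14519420 counts in the KO-labelled group and from 8953489 to 15112452 in the WT-labelled group. The cells carried the transcripts of macrophages: all 16 macrophage identity genes on the list (among them Adgre1, Csf1r and Lyz2) were detected, with a summed level of 29819 to 34172 CPM (counts scaled to a fixed library size) in the KO-labelled and 28583 to 32752 CPM in the WT-labelled libraries. A pair of WT-labelled libraries stood apart. Replicate 5, of set B, had 5733 CPM of skeletal muscle transcripts over 20 marker genes, against at most 166 CPM in the other 11 libraries, and 328 CPM of stromal markers. Replicate 1, of set A, had 0 CPM of the Y-linked gene Kdm5d and a summed level of the sex-linked genes of 534 CPM, against 150 to 201 CPM in the rest. That list sums Xist and Tsix with the Y-linked genes Ddx3y, Eif2s3y, Kdm5d and Uty. The sex of the animals was not tested. In bulk RNA, fewer cells of a type and less RNA per cell cannot be told apart. Most of the results below that rest on replicate 5 or replicate 1 are given without it as well.

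Over all 12 libraries few genes passed the test. Of 12957 genes tested with edgeR's quasi-likelihood test over the whole series, 13 were called at an adjusted p below 0.05, which is 0.1% of the genes (1203 had an unadjusted p below 0.05). Of these, 7 were higher in the KO-labelled libraries (Nos1, 1500011B03Rik, Zfp949, Plcl2, Tmem110, Elmod2 and Ankle2) and 6 were lower (Rplp0, Cxcl1, Abhd17c, Me1, Zfp369 and Srl), or 0.054% and 0.0463%. The count rested on single libraries. Without WT replicate 5 it was 2, Rplp0 and Nos1, and without KO replicate 3 or KO replicate 4 it was 3, these and 1500011B03Rik. Without WT replicates 1, 2 or 6, or KO replicates 1 or 2, it rose to 49, 112, 71, 37 and 40, and in a fit to the 12 libraries alone it was 0. DESeq2 called 94 genes and limma-voom 29.

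Rplp0 had the smallest adjusted p of the pooled comparison. It encodes the acidic stalk protein of the large ribosomal subunit and is often used as a reference gene. Its level was 469, 503 and 466 CPM in the KO-labelled libraries of set A and 452, 514 and 476 CPM in those of set B. The WT-labelled libraries had 1002, 988 and 965 CPM in set A and 669, 665 and 603 CPM in set B. All 6 KO-labelled libraries lay below all 6 WT-labelled ones, and the WT-labelled libraries of set B lay between (pooled log2 fold change -0.76, SE 0.12, adjusted p = 0.00263). Of the 35 cytosolic ribosomal protein genes on the list, Rplp0 alone was called.

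Nos1 had the largest difference of the 7 genes called higher (log2 fold change 3.26, SE 0.58, adjusted p = 0.0114). In set A, where the WT-labelled libraries had no Nos1 count, the level of the KO-labelled libraries was at least 12.8-fold higher, taken against a floor of 3 counts over the 3 WT-labelled libraries. In set B it was 1.30, 1.89 and 2.06 CPM against 0, 0.0943 and 0.855 CPM. The 8 counts of WT replicate 5 are in the library with skeletal muscle transcripts, a tissue that is known to make NOS1, and their source was not tested. Without that library Nos1 was still called in set B (adjusted p = 0.000307).

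Most of the other pooled calls were moderate differences carried by set B. Abhd17c, which encodes a depalmitoylating enzyme, had 32.9, 36.2 and 38.2 CPM in the KO-labelled and 78.7, 76.1 and 77.2 CPM in the WT-labelled libraries of set B (log2 fold change -1.11, SE 0.08, adjusted p = 3.36e-11). In set A the same gene had 48.3, 51.4 and 46.3 CPM and 56.4, 45.0 and 53.0 CPM, and these overlapped. Cxcl1, a chemokine that draws neutrophils, had 11.6, 11.3 and 12.1 CPM against 54.7, 47.8 and 49.8 CPM in set B and 12.7, 21.01 and 9.95 CPM against 28.5, 13.6 and 11.3 CPM in set A. The Cxcl1 groups were apart in set B and overlapped in set A. Tmem110, which encodes a regulator of calcium entry at the endoplasmic reticulum, had a like difference in both sets (0.42 in set A and 0.64 in set B on the log2 scale), and its 6 KO-labelled libraries lay above all WT-labelled ones. Plcl2, Elmod2, Zfp949 and Ankle2 were higher by a pooled log2 fold change of 0.56, 0.51, 0.74 and 0.41. Me1, the cytosolic malic enzyme that makes NADPH, and the zinc finger gene Zfp369 had -0.58 and -0.53. Srl, a sarcoplasmic reticulum gene, stood at 58.4 CPM in WT replicate 5 and at 1.98 CPM or less in each of the other 11 libraries, so its call rests on the library with muscle transcripts.

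Without regard to the test, 32 genes had all 6 KO-labelled libraries above all 6 WT-labelled ones, which is 0.247% of the genes tested, and 17 had all 6 below, which is 0.131%. The same pooled comparison called 19 genes in controls (0.147%) and 3 genes after LPS for 2 h (0.0232%). The test of whether the 8 h difference itself differed from the difference in controls or at 2 h called 0 genes in edgeR (544 and 432 at an unadjusted p below 0.05). With the library set as a term, the count against controls was 3 and that of the 8 h comparison itself 151 (1.17%).

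Genes of nitric oxide synthesis, SOCS feedback and NF-kB, other than Nos1, had no pooled call. Nos2, the inducible synthase, had 3529.7, 3256 and 3113 CPM against 2471, 3099 and 3168 CPM in set A and 4683, 4407 and 4553 CPM against 2568, 2355 and 2428 CPM in set B. The labels overlapped in set A and were apart in set B, and the pooled log2 fold change was 0.55 (adjusted p = 0.723). Socs1, which blocks JAK kinases, had 86.6 ± 11.8 CPM against 71.6 ± 9.97 CPM (SD, n = 6), with a pooled log2 fold change of 0.28 (adjusted p = 0.794). Socs3 had 0.07 (adjusted p = 0.972). The NF-kB subunits Rela and Nfkb1 and the inhibitor Nfkbia had 0.06, -0.05 and -0.09, with adjusted p of 0.944, 0.924 and 0.873. Arg1, the arginase that competes with NOS2 for arginine, was near its limit of detection in both groups, at 1.57 ± 1.59 CPM against 1.01 ± 1.11 CPM.

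The genes called in the same direction in both sets were 8, and they were of 2 kinds. The first were Nos1 and 4 genes within 5 Mb of it on chromosome 5: Rplp0, Coq5, Gltp and 1500011B03Rik. The second were Gm8730 on chromosome 8, Gm9625 on chromosome 13 and Gm14165 on chromosome 2, which GENCODE M21 annotates as processed pseudogenes. Their annotated transcripts were identical to that of Rplp0 at 98.7%, 97.4% and 97.2% of aligned bases, and 39.4%, 31.1% and 12% of their 50-base windows occur unchanged in an Rplp0 transcript. Counts of Rplp0 and of these copies are therefore uncertain, since the counting can split reads between them. Genes within 5 Mb of Nos1, counting Nos1 itself, made up 5 of the 8 calls, or 4.27% of the 117 genes tested there, against 0.0234% of the 12840 genes tested elsewhere. The reason for this grouping was not tested. Without WT replicate 1 the set A calls of Nos1 (adjusted p = 0.148) and Coq5 (adjusted p = 0.122) were lost, which leaves 3 of these 5, Rplp0, Gltp and 1500011B03Rik. Without WT replicate 5 the set B call of 1500011B03Rik was lost (adjusted p = 0.0544), at a log2 fold change of 0.49 against 0.54 with that library.

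Coq5, a methyltransferase of coenzyme Q synthesis, had 26.3, 30.5 and 29.2 CPM against 19.7, 19.8 and 19.1 CPM in set A, and 27.8, 36.9 and 29.8 CPM against 21.9, 26.1 and 27.5 CPM in set B. Gltp, which encodes a glycolipid transfer protein, was lower, with 139.6, 137 and 136 CPM against 183, 191 and 187 CPM in set A and 105, 112 and 108 CPM against 141, 142 and 128 CPM in set B. The transcript 1500011B03Rik was higher, with 14.8, 15.6 and 17.6 CPM against 8.33, 7.55 and 9.49 CPM in set A, and 12.6, 13.7 and 12.2 CPM against 8.06, 10.2 and 8.34 CPM in set B. The labels did not overlap within either set for any of these, but for Coq5 in set B the highest WT-labelled library, at 27.5 CPM, was just under the lowest KO-labelled one, at 27.8 CPM.

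The Rplp0-like copies showed 3 levels. Gm8730 had 258, 284 and 245 CPM in the KO-labelled libraries of set A and 249.2, 285 and 258 CPM in those of set B. The WT-labelled libraries had 1.58, 3.32 and 1.85 CPM in set A but 127, 134 and 121 CPM in set B. Gm9625 was at 61.0 and 62.6 CPM on average in the KO-labelled libraries of both sets, at 0.588 CPM in WT-labelled set A and at 27.9 CPM in WT-labelled set B. Thus the WT-labelled libraries of set B lay between those of set A and the KO-labelled ones for Rplp0, Gm8730, Gm9625 and Gm14165. The same order of the set means held in controls, where Gm8730 averaged 1.73 CPM in WT-labelled set A, 132.5 CPM in WT-labelled set B, and 293.1 and 265.2 CPM in the KO-labelled sets A and B. It held after 2 h as well, with 1.94, 153.5, 289.8 and 295.7 CPM in that order. What this level in the WT-labelled libraries of set B comes from was not tested.

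**Figure D1:**
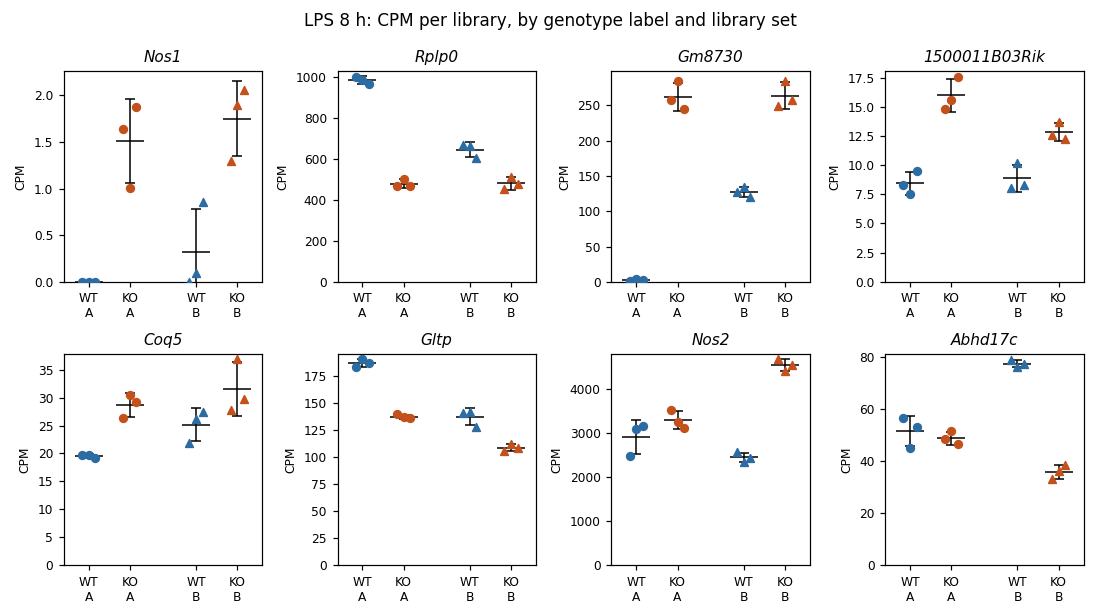
CPM of 8 genes after LPS for 8 h in each of the 12 libraries, by genotype label (WT blue, KO orange) and library set (A circles, B triangles). Horizontal lines are means and bars SD (n = 3). Rplp0 and Gm8730 show WT-labelled set B between WT-labelled set A and the KO-labelled libraries, while the labels of Nos2 and Abhd17c overlap in set A and are apart in set B.

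**Figure D2:**
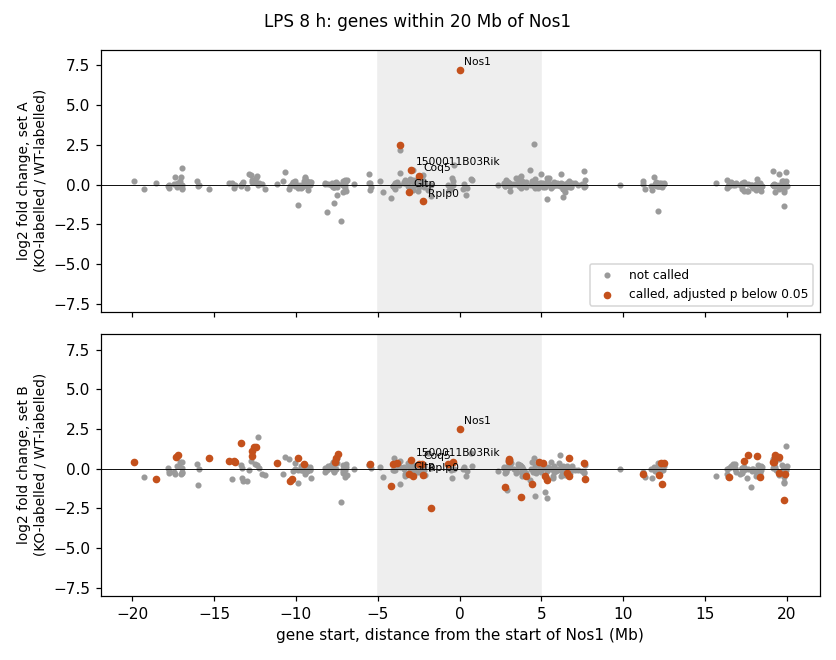
Log2 fold change (KO-labelled against WT-labelled, LPS 8 h) of genes within 20 Mb of Nos1, by the distance of the gene's start from that of Nos1, for set A (top) and set B (bottom), with called genes in orange and the 5 Mb window shaded. In set A, 6 of 117 genes in the window were called; in set B, 20 were, at the same share as elsewhere.

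The sets differed greatly in how many genes separated the labels. In set A 13 genes were called (0.1%), 10 higher and 3 lower. In set B 2220 genes were called (17.1%), 1350 higher (10.4%) and 870 lower (6.71%). Scaled by library totals alone, set B had 902 higher and 1453 lower, so the split between directions depends on the scaling. The difference between the sets was itself called for 750 genes (5.79%), 450 with a higher (3.47%) and 300 with a lower value (2.32%) in set B. Without WT replicate 5, set B had 1514 called genes (11.7%; 7.29% higher and 4.39% lower) and the difference between the sets 539 (4.16%). The biological coefficient of variation was 0.110 in set A, 0.103 in set B and 0.0389 in set B without WT replicate 5.

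Set A held few calls besides those shared with set B. These were Mgll, Acacb and the predicted gene Gm10819, with Acvrl1 and Prg2, which were called in opposite directions in the sets. Mgll, the lipase that breaks down monoacylglycerols, had 29.0, 17.3 and 23.002 CPM in the KO-labelled and 10.2, 11.6 and 11.99 CPM in the WT-labelled libraries of set A (log2 fold change 1.041, SE 0.16, adjusted p = 0.000773), and the labels did not overlap. Acacb, an acetyl-CoA carboxylase encoded within 5 Mb of Nos1, had 2.97, 4.02 and 2.88 CPM against 0.614, 0.302 and 0.791 CPM. In set B it was called only without WT replicate 5 (adjusted p = 0.00572, log2 fold change 1.49), where that library stood at 5.56 CPM. Without WT replicate 1, set A had 7 called genes (0.054%), and Nos1, Coq5, Acacb, Gm10819, Acvrl1 and Prg2 were no longer among them. Within 5 Mb of Nos1, 6 of the 117 genes were called in set A (5.13%, against 0.0545% elsewhere) and 20 in set B (17.1%, and 17.1% elsewhere).

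**Figure D3:**
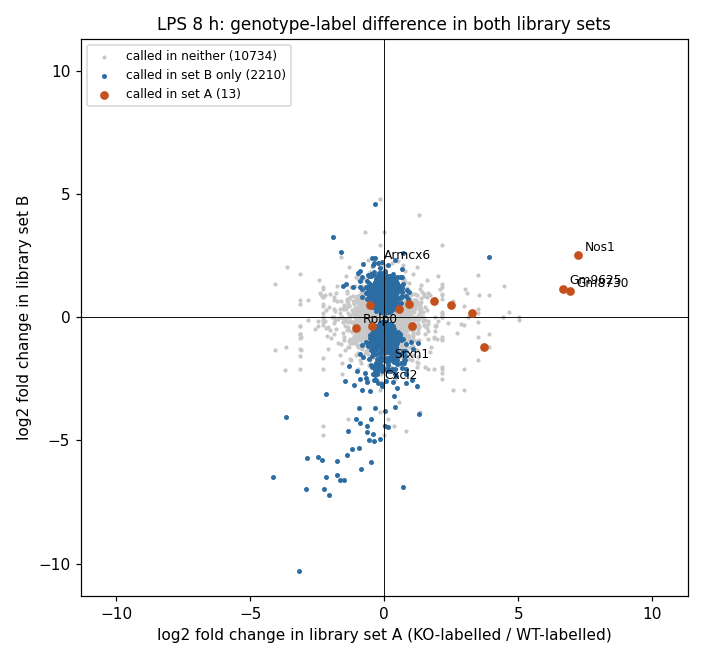
Log2 fold change (KO-labelled against WT-labelled, LPS 8 h) of the 12957 genes tested in set A (horizontal) and set B (vertical), with genes called in set A in orange and those called in set B alone in blue. Most called genes spread along the vertical axis. Of the 40 genes below -4 in set B, 32 were called, and 0 of them were called without WT replicate 5.

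What follows describes set B, the 3 KO-labelled libraries (replicates 3, 4 and 5) and the 3 WT-labelled ones of the same numbers, with set A beside it. The genes named in set B were chosen after the values were seen, as the called genes with the smallest adjusted p, over all genes and within each list by direction (at most 4). Among those with the smallest adjusted p, the higher ones included Armcx6, Irf8, the interferon-responsive transcription factor of the myeloid lineage, the drug transporter Abcb1a, and Sgpp1, which degrades sphingosine phosphate. Irf8 had 564, 578 and 573 CPM against 209, 204 and 196 CPM, and in set A 313, 322 and 299.9 CPM against 400.1, 303 and 326 CPM. Armcx6 had 44.1, 47.9 and 42.5 CPM against 10.3, 9.61 and 9.30 CPM, and 20.3, 19.1 and 20.5 CPM against 26.1, 20.7 and 23.7 CPM in set A. Both were well apart by label in set B. In set A Irf8 overlapped, and Armcx6 was slightly lower in all 3 KO-labelled libraries without passing the test. The lower ones included Ampd3, an AMP deaminase, at 34.2, 31.8 and 33.2 CPM against 113, 95.2 and 104 CPM, and Abhd17c, Cxcl2, Srxn1, Gclm and Txnrd1, described with their groups.

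The neutrophil-attracting chemokines were lower in the KO-labelled libraries of set B, and the interferon-dependent ones higher. Cxcl2 had 160.2, 146 and 148 CPM against 1026, 937 and 940.4 CPM (log2 fold change -2.68, SE 0.15, adjusted p = 1.04e-13). Set A had 362.8, 399 and 310.3 CPM against 487, 364.6 and 394.4 CPM, which overlapped, and the difference between the sets was called (adjusted p = 1.09e-09). Cxcl3 had 17.2, 17.5 and 18.8 CPM against 109, 99.5 and 106 CPM, and Ccl3, which draws monocytes, 2964, 3075 and 2891 CPM against 6203, 5598 and 5341 CPM. In contrast Cxcl9, Cxcl10 and Cxcl11, the ligands of CXCR3, were higher, with log2 fold changes of 1.17, 0.50 and 1.73. Of the 21 chemokines tested, 4 were called higher and 6 lower, with a median of -0.17 against 0.02 over all genes (in set A 0 were called and the median was -0.07). The shares of all genes called in set B were 10.4% higher and 6.71% lower. Without WT replicate 5 the counts were 2 and 6, where 7.29% and 4.39% of all genes were called, and Cxcl10 had an adjusted p of 0.13. The call of Cxcl10 was lost whichever library of set B was left out (adjusted p from 0.0794 to 0.130).

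Cxcl1, Cxcl2 and Cxcl3 are neighbours on chromosome 5, and their promoters are shown because the genes moved together. The sequences are the 250 bases before the annotated start (RefSeq, GRCm38.p6, plus strand), at chr5:90890995-90891244, chr5:90903649-90903898 and chr5:90785851-90786100. Capitals mark matches, on either strand, to GGG, any 2 bases and TTTCC, a form of the site bound by NF-kB.
Cxcl1: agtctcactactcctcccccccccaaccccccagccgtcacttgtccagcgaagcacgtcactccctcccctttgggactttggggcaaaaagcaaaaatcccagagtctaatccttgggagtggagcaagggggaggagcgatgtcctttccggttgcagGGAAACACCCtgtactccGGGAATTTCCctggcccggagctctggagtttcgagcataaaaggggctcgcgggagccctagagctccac
Cxcl2: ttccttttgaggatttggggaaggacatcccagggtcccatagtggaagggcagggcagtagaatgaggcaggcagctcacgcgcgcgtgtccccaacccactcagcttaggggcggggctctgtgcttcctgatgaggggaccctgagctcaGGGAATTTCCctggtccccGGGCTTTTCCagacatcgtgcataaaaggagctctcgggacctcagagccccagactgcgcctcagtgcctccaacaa
Cxcl3: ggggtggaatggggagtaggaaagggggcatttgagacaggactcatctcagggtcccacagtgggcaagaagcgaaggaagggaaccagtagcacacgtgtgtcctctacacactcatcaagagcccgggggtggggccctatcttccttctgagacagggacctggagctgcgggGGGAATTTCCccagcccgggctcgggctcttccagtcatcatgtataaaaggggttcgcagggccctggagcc
Each held at least 1 match. Of the 14 chemokine genes with a promoter window 4 did, against 1.65% of the 27025 genes with a window. Of the 6 chemokine genes called lower in set B 3 held a match, and the other match was in Ccl9, which was not called there. A match is a description of the letters and not of binding.

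Cytokines showed the same 2 directions. Tnf had 1454, 1465 and 1426 CPM in the KO-labelled and 2922, 2809 and 2629 CPM in the WT-labelled libraries of set B (log2 fold change -0.94, SE 0.14, adjusted p = 7.46e-06), and 3164, 2727 and 2921 CPM against 2786, 2644 and 2978 CPM in set A. Il1b had 1417, 1528 and 1652 CPM against 4782, 4908 and 5042 CPM, and Il1a 921, 927 and 1035 CPM against 2628, 2504 and 2774 CPM. For all of these the labels were apart in set B and overlapped in set A. The other lower members were Csf3, which drives neutrophil production, Il6, Osm, Csf2, Il12a and Inhba, with Csf3 at 26.2, 30.1 and 30.1 CPM against 119, 124 and 115 CPM. Il10, the cytokine that restrains macrophages, was higher, with 118, 118 and 122 CPM against 46.3, 42.7 and 44.2 CPM (log2 fold change 1.43, SE 0.22, adjusted p = 2.11e-05), and in set A 26.1, 34.9 and 26.3 CPM against 43.1, 39.9 and 27.2 CPM. Ifnb1, interferon beta, was also higher (log2 fold change 1.19, SE 0.25, adjusted p = 0.000865), at 4.60, 4.17 and 4.96 CPM against 2.36, 1.23 and 2.46 CPM. In set A Ifnb1 had 11.5, 9.15 and 7.74 CPM against 4.56, 7.70 and 6.06 CPM. The labels did not overlap there either, though Ifnb1 was not called, and its difference between the sets was not called. Il12b, a subunit of IL-12 and IL-23, did not pass in set B, at -0.24 (adjusted p = 0.497). Of the 24 cytokines tested 7 were called higher and 9 lower (5 and 9 without WT replicate 5), and the difference between the sets was called for 3 and 6. Over all genes, 10.4% were called higher and 6.71% lower in set B (7.29% and 4.39% without that library). The difference between the sets was called higher for 3.47% and lower for 2.32% of all genes.

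Genes that NRF2 is known to drive were lower in the KO-labelled libraries of set B. Srxn1, which repairs peroxiredoxins, had 60.4, 62.7 and 66.8 CPM against 226, 224 and 221 CPM (log2 fold change -1.82, SE 0.10, adjusted p = 1.04e-13), and in set A 259.7, 176 and 232 CPM against 212, 169 and 222 CPM. Gclm, a subunit of the enzyme that starts glutathione synthesis, had 25.6, 24.1 and 26.8 CPM against 84.2, 78.2 and 74.9 CPM, and Txnrd1, thioredoxin reductase, 242, 242 and 240.2 CPM against 622, 597 and 592 CPM. Slc7a11, which imports cystine for glutathione, had 44.4, 36.5 and 39.5 CPM against 193, 176 and 199.6 CPM. In each of these the labels were far apart in set B, while in set A they overlapped. Of 21 tested genes of the list, 12 were called lower (Slc7a11, Srxn1, Gclm, Txnrd1, Gclc, Hmox1, Cat, Sqstm1, Osgin1, Prdx1, Gsr and Mt1) and 2 higher (Keap1, which holds NRF2 back, and Gpx1), with a median of -0.62 against 0.02 over all genes. Over all genes, 6.71% were called lower and 10.4% higher in set B. In set A 0 genes of the list were called and their median was 0.00. The difference between the sets was called lower for 10 genes of the list, against 2.32% of all genes. Without WT replicate 5 the set B counts were 12 lower and 0 higher, against 4.39% and 7.29% of all genes. In controls of set B, 5 were called lower, against 0.486% of all genes. The 8 h difference was lower than that of controls for 6, against 2.37% of all genes.

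Iron genes overlapped with this group. Hmox1, which frees iron from haem and is on both lists, had 680.4, 726 and 690.3 CPM against 1475, 1546 and 1489 CPM (log2 fold change -1.10, SE 0.20, adjusted p = 0.000176). Slc40a1, the iron exporter ferroportin, had 3.42, 3.12 and 2.62 CPM against 13.1, 15.3 and 12.6 CPM, and in set A 44.8, 26.9 and 35.6 CPM against 23.1, 25.7 and 41.0 CPM. Slc11a1, a metal transporter of the phagosome, was lower as well (log2 fold change -0.58, SE 0.07, adjusted p = 1.09e-06). Of 16 tested iron genes 5 were called lower and 1 higher, against 6.71% and 10.4% of all genes.

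The promoters of Gclm and Txnrd1, at chr3:122245307-122245556 and chr10:82858956-82859205 (250 bases before the start, RefSeq, GRCm38.p6, plus strand), are shown as members of the group whose window held the antioxidant response element in the form TGACNNNGC. Capitals mark matches on either strand.
Gclm: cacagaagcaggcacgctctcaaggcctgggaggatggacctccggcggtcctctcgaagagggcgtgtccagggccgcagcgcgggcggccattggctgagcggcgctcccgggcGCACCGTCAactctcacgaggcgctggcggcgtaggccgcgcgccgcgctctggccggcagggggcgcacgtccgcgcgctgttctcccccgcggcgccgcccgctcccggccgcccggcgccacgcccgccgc
Txnrd1: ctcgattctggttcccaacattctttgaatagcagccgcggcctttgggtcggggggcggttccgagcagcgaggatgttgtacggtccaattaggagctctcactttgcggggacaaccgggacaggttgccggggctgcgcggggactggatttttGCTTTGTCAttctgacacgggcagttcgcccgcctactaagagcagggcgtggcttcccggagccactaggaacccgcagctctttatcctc
Of the 18 genes of the list with a window, 6 held a match, against 11.5% of all genes with a window. Of the 9 called lower that had a window 3 held one.

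The genes of cholesterol and fatty acid synthesis were lower as a group in set B. Sqle, squalene epoxidase, had 27.1, 27.6 and 24.8 CPM in the KO-labelled and 82.2, 86.5 and 73.4 CPM in the WT-labelled libraries (log2 fold change -1.61, SE 0.19, adjusted p = 3.96e-07). Fasn, fatty acid synthase, had 10.8, 10.98 and 10.0 CPM against 30.8, 26.9 and 33.2 CPM. In set A the means stood the other way, but not past the test. There Sqle had 120.2, 62.9 and 94.0 CPM against 64.9, 49.4 and 84.0 CPM, Fasn had a log2 fold change of 0.28, and the labels overlapped for both. Of 30 tested genes 19 were called lower in set B and 0 higher, with log2 fold changes from -1.71 for Scd2, a desaturase, to -0.77 for Srebf2, the regulator of the pathway, and a median of -0.93. Over all genes, 6.71% were called lower in set B and 10.4% higher. The lower genes of the list also included Insig1, which holds SREBP back (-0.93). In set A 0 were called and the median was 0.33. In set B controls 1 was called lower, with a median of -0.43, and after 2 h 0 were called, with a median of -0.44. The 8 h difference was called lower than that of controls for 3 genes of the list (2.37% of all genes). The difference between the sets was called lower for 19 genes, against 2.32% of all genes, and for 18 without WT replicate 5. Without that library set B still had 19 calls, where 4.39% of all genes were called lower. Leaving out any 1 of the 6 libraries of set B gave 18 or 19 calls, all lower.

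Hmgcs1, an early enzyme of cholesterol synthesis, holds the sterol response element in the form TCACNCCAC. Among the 20 genes of the list with a window it alone does, against 1.22% of all genes with a window. Its window is at chr13:119690101-119690350 (plus strand, GRCm38.p6), with the match in capitals.
Hmgcs1: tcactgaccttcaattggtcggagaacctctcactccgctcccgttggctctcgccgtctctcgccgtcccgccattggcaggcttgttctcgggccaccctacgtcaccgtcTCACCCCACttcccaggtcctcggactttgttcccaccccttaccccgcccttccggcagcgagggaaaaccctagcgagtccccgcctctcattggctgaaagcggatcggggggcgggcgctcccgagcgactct
Among the genes of cholesterol efflux and the liver X receptor, Ch25h, which makes 25-hydroxycholesterol, was higher in set B, at 63.4, 61.3 and 63.6 CPM against 13.4, 12.8 and 15.9 CPM (log2 fold change 2.16, SE 0.40, adjusted p = 0.000213), and the difference between the sets was called (adjusted p = 0.00144). In set A it had 6.55, 8.84 and 8.52 CPM against 23.3, 8.00 and 9.23 CPM. The other called members of this list of 12 tested genes were Npc2, higher, and Mylip, Nr1h3 and Npc1, lower. Without WT replicate 5 the list had 2 higher and 1 lower. The share of all genes called was 17.1% in set B and 11.7% without that library.

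**Figure D4:**
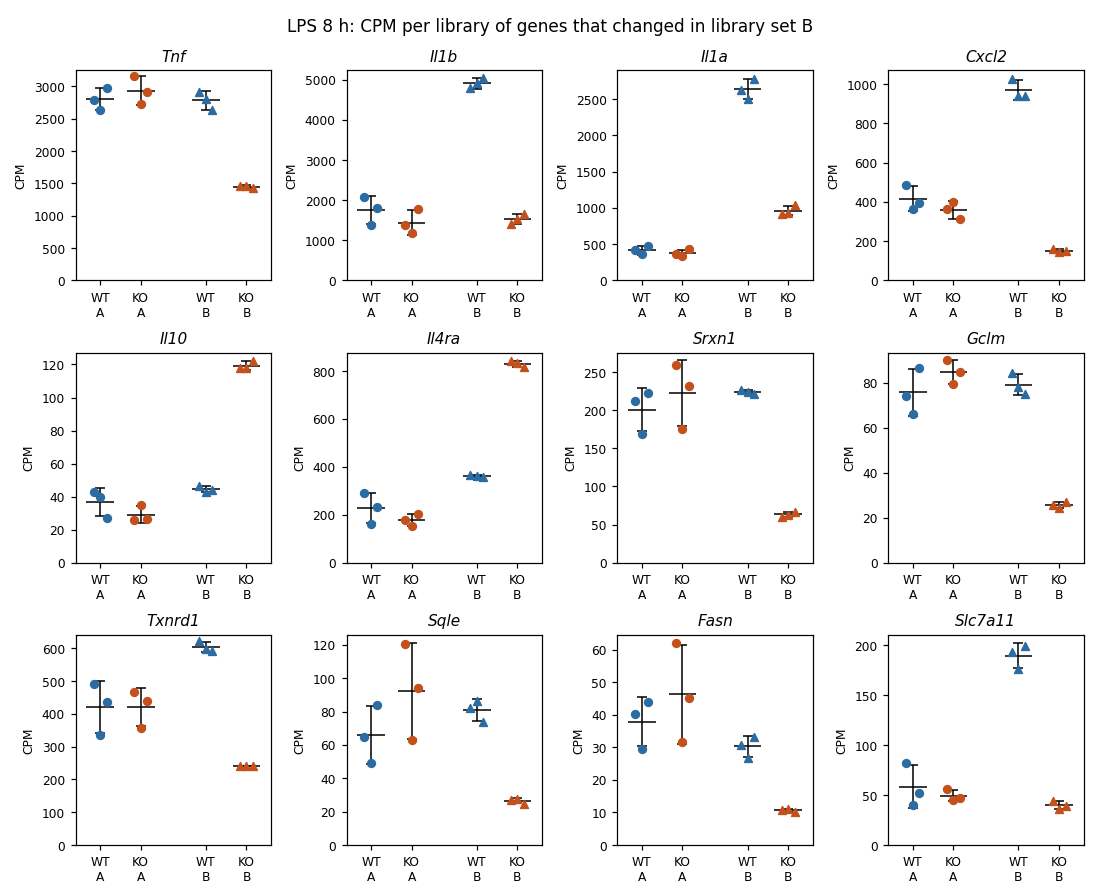
CPM after LPS for 8 h of 12 genes called in set B, in each of the 12 libraries, by genotype label (WT blue, KO orange) and library set (A circles, B triangles), with means and SD (n = 3). In set A the labels overlap for each gene drawn, and in set B all 3 KO-labelled libraries lie on one side of the WT-labelled ones.

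Interferon-stimulated genes of set B were far higher in the KO-labelled controls, and less so at 8 h. At 8 h in set B, 12 of 49 tested genes were called higher and 0 lower (median 0.40), among them Iigp1, an immunity-related GTPase, with 786, 809 and 779.7 CPM against 334, 344 and 338 CPM, and Ifit2 with 7439, 7481 and 7451 CPM against 3783, 3679.7 and 3691 CPM. Over all genes, 10.4% were called higher in set B at 8 h. Without WT replicate 5 the count of the list was 5 (7.29% of all genes were called higher there). Leaving out each of the other libraries of set B gave between 5 and 8. Isg15 and Irf7 did not pass, at 0.23 (adjusted p = 0.406) and 0.56 (adjusted p = 0.17). In set B controls all 49 were called higher, with a median of 2.12 (2.98% of all genes were called there, 2.49% higher and 0.486% lower). Isg15 had a log2 fold change of 3.40 and Irf7, a transcription factor of the interferon response, one of 4.64 in those controls. In set A controls the values were -0.41 (adjusted p = 0.76) for Isg15 and -0.02 (adjusted p = 0.996) for Irf7. After 2 h the median was 1.18 and 41 of the 49 were called higher (2.97% of all genes called, 2.31% higher). The 8 h difference was lower than the control difference for 47 of the 49 (669 genes called for that test, 5.16%, with 2.37% lower). In set A at 8 h 0 were called, with a median of 0.07.

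MHC class I genes followed the same order. In set B controls 19 of 23 were called higher, and at 8 h 4 were: B2m, H2-T22, H2-Q7 and H2-Q6. Of all genes tested 10.4% were called higher in set B at 8 h. Leaving out WT replicate 5 gave 2 calls, H2-T22 and H2-Q6, where 7.29% of all genes were called higher. H2-Q6 had 65.9, 66.6 and 57.3 CPM against 23.1, 24.03 and 25.8 CPM at 8 h. H2 genes are near-identical in parts, and counts of single members are uncertain. Of the 11 MHC class II genes 0 were called in either set at 8 h.

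**Figure D5:**
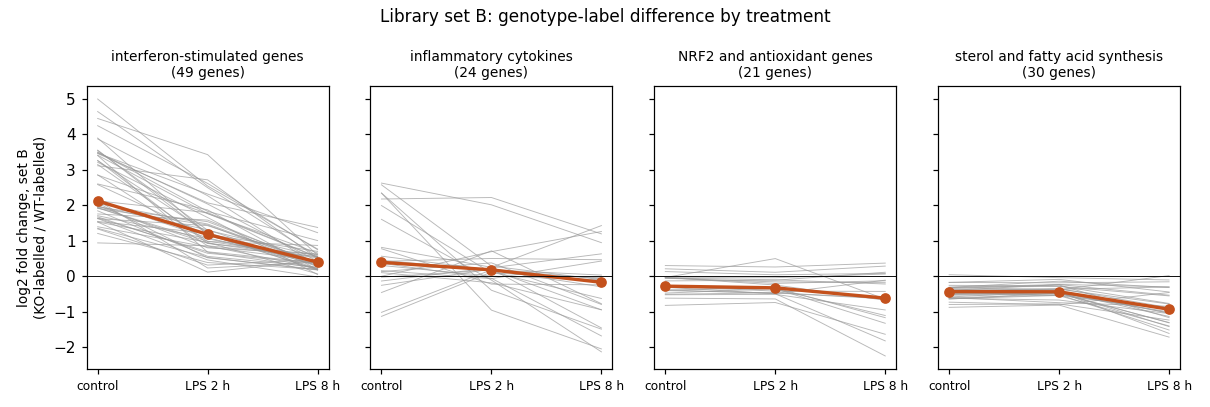
Log2 fold change of KO-labelled against WT-labelled libraries in set B for the tested members of 4 gene lists, in controls and after LPS for 2 and 8 h. Grey lines are genes and the orange line their median. From controls to 8 h it goes from 2.12 to 0.40 for interferon-stimulated genes and from -0.43 to -0.93 for sterol and fatty acid synthesis.

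Signalling genes of the JAK and STAT pathway leaned higher in set B. Of 32 tested, 10 were called higher and 2 lower, with a median of 0.25 (7 and 2 without WT replicate 5, and 8 and 5 when scaled by library totals alone). The shares of all genes called in set B were 10.4% higher and 6.71% lower, or 7.29% and 4.39% without WT replicate 5. Stat3 had 971, 931 and 923 CPM against 518, 510.5 and 485 CPM (log2 fold change 0.90, SE 0.12, adjusted p = 2.12e-06). Il4ra, the receptor of IL-4 and IL-13, had 841, 832 and 815 CPM against 367.04, 362 and 358 CPM, and in set A 179.8, 152 and 204 CPM against 291, 163 and 231 CPM. The feedback inhibitor Cish was lower (log2 fold change -1.47, SE 0.24, adjusted p = 5.46e-05), while Socs1 and Socs3 did not pass in set B, at 0.36 (adjusted p = 0.301) and 0.18 (adjusted p = 0.489).

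NF-kB targets and feedback genes were split. Of 35 tested, 6 were higher (Tnip3, Il1rn, Cd83, Ripk2, Bcl3 and Rel) and 6 lower (Ptgs2, Irak3, Malt1, Tnfaip2, Nlrp3 and Vcam1), with a median of 0.07. Over all genes, 10.4% were called higher and 6.71% lower in set B. Without WT replicate 5 the counts were 5 and 5, where 7.29% and 4.39% of all genes were called. Bcl3 and Vcam1 were then no longer called. Il1rn, the natural antagonist of IL-1 receptors, had 8904, 9619 and 9332 CPM against 4865, 5029 and 5478 CPM, opposite to Il1a and Il1b. Ptgs2, the inducible cyclooxygenase, had 2051, 2087 and 2108 CPM against 3843, 3864 and 3713 CPM. Rela, Nfkb1 and Nfkbia had 0.02, -0.11 and -0.11 and did not pass. Among the 38 genes of Toll-like receptor signalling 5 were higher and 3 lower, where 17.1% of all genes were called. Leaving out WT replicate 5 gave 4 and 3, where 11.7% of all genes were called. Tlr3, the sensor of double-stranded RNA, had 306, 308 and 301.1 CPM against 163, 159 and 162 CPM. Cd14 had 885, 995 and 975 CPM against 1374, 1402 and 1274 CPM.

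Effectors of activation were called in both directions. Nos2 was higher in set B (log2 fold change 0.89, SE 0.29, adjusted p = 0.0321), but the difference between the sets was not called (adjusted p = 0.373). The set B call of Nos2 was lost whichever library of the set was left out (adjusted p from 0.0685 to 0.0960). Without WT replicate 5 it had an adjusted p of 0.0926, at a log2 fold change of 0.89. Of 19 genes of nitric oxide and arginine metabolism Nos1 and Nos2 alone were called. The costimulatory genes Cd80 and Cd86 were higher (0.68 and 0.70), and the scavenger receptor Marco was lower, at 198, 197 and 176 CPM against 548, 534 and 465 CPM. Of the 27 classical activation effectors 8 were higher and 8 lower (5 and 8 without WT replicate 5). Of the 21 alternative activation markers 2 were higher, Pparg and Il4ra, and 5 lower, among them Stab1, Chil3 and Ccl17. Of 24 genes of the inflammasome and cell death 8 were higher, led by Aim2 and Pycard, and Nlrp3 was lower (4 and 2 without WT replicate 5). Beside each of these lists, the share of all genes called was 17.1% in set B and 11.7% without that library.

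Other groups showed smaller or mixed differences. Of 40 cell cycle genes 7 were higher, with Tpx2, a spindle protein, at 155, 169 and 166 CPM against 86.2, 81.0 and 79.3 CPM, and Mki67 was lower (log2 fold change -0.62, SE 0.19, adjusted p = 0.0203). These 8 calls of 40 are near the share of all genes called in set B, 17.1%. The counts without WT replicate 5 were 4 and 1, where 11.7% of all genes were called. Hif1a and Pfkfb3, which raise glycolysis, were higher (0.62 and 1.11), and Aldoa was lower (-0.44, and -0.37 with an adjusted p of 0.105 without WT replicate 5). The other 24 of 27 glycolysis and hypoxia genes tested were not called, so the share called was below the 17.1% of all genes. Of 29 immediate early genes and dual-specificity phosphatases 7 were higher, with Fos and Dusp1 at 0.91 and 0.86, and 4 lower, with Dusp8 at -1.60 (4 and 4 without WT replicate 5). The stress response gene Ppp1r15a, which restarts translation, was lower (log2 fold change -0.85, SE 0.11, adjusted p = 2.34e-06). Its list of 25 had 4 higher and 3 lower (2 and 2 without WT replicate 5), where 17.1% and 11.7% of all genes were called. Of the 28 respiratory chain subunits 1 was called, Uqcrc1, and 0 without WT replicate 5, and of the 8 phagocyte oxidase subunits 0.

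Markers of other cells moved with the label in places. Neutrophil markers, of which 15 were tested, had 4 genes called lower in set B (Camp, S100a9, S100a8 and Ngp) and summed to 452, 443 and 466 CPM in the KO-labelled and 568, 588 and 612 CPM in the WT-labelled libraries of set B. In set A the sums were 449, 296 and 433 CPM against 319, 303 and 399 CPM, and they overlapped. Over all genes, 6.71% were called lower in set B at 8 h and 0.486% in its controls. Of the 15 neutrophil markers 6 were called lower in those controls. Their part in the lower levels of Csf3 and of the chemokines was not tested. Skeletal muscle markers were called lower for 17 of 17 tested genes in set B and for 0 without WT replicate 5, and stromal markers for 7 of 12 and then 2. The shares of all genes called lower were 6.71% in set B and 4.39% without that library. One gene of the stromal list, the endothelial adhesion gene Pecam1, was called higher with and without that library (0.92 and 1.03). Of 14 T and NK cell markers 5 were at 0 in all 12 libraries and 3 could be tested. Of these, Klrk1, a natural killer receptor gene, was higher in set B, at 47.0, 48.3 and 53.9 CPM against 17.1, 17.4 and 20.7 CPM, and so was Lck, a kinase of the T cell receptor (0.87). The list summed to 65.5, 68.4 and 71.1 CPM in the KO-labelled and 31.6, 31.1 and 35.1 CPM in the WT-labelled libraries of set B, which lay apart. Klrk1 made up most of each of these set B sums, so they largely repeat its call. In set A the sums were 71.7, 58.1 and 74.6 CPM against 63.1, 55.6 and 68.8 CPM, which overlapped. Of 11 dendritic cell markers tested, Tcf4 and Xcr1 were called higher in set B (0.81 and 0.98), and Tcf4 alone without WT replicate 5. These counts are near the shares of all genes called, 17.1% in set B and 11.7% without that library. The dendritic list summed to 360.1, 366.4 and 347 CPM against 249.2, 244 and 254 CPM in set B, which lay apart. Most of each set B sum was Tcf4, at 255.9, 253.8 and 240.5 CPM against 146.7, 138.7 and 141.7 CPM. The set B sums therefore largely repeat the call of Tcf4. In set A the dendritic sums were 391.03, 418 and 371.5 CPM against 338, 424 and 359 CPM, which overlapped. Whether such cells were present, and any part of theirs in the results of set B, was not tested.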

How the data were processed

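The authors deposited unnormalized counts, 1 file of gene counts for each of the 36 libraries, made with HTSeq on mm10, per the submitters' processing notes. HTSeq's version and strand option, the aligner and the gene annotation are not stated, so reads of overlapping or antisense genes cannot be told apart. Each file held 54232 gene IDs, of which 54165 matched GENCODE M21, the source of symbols and positions. The counts of all 36 libraries were fitted with edgeR 4.0.16 (R 4.3.3): filterByExpr left 12957 genes, libraries were scaled by TMM, and the quasi-likelihood test compared group means, with Benjamini-Hochberg adjustment over all genes tested and calls at an adjusted p below 0.05. SE is the log2 fold change over the square root of F. Library sets came from the first principal component of the residuals and have a mean per group and set in a second fit. CPM uses the scaled library sizes; SD is over libraries. Alternatives included DESeq2 1.42.0 and limma-voom 3.58.1. The steps were checked on simulated data.

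Members, gene lists and library sets were chosen with earlier results of these data known. Named genes were a set of nitric oxide, NF-kB, cytokine and interferon genes, the largest called changes, called members of each list, and genes called in both sets. The values of set B in controls and at 2 h, and the counts without WT replicates 1 or 5 within the sets, were added after seeing the data. Replicate numbers follow accession order and pair nothing. Promoters and motif matches came from RefSeq windows of GRCm38.p6 (32851 windows), and counts of pathway lists have no test of their own. A few genes picked out by the naming rule have no values printed in the text.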

Additional observations from a re-analysis of the deposited data

Results flagged for a closer look

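In 160 groups of 6 libraries, formed by 70 genes and 10 marker lists under either label, 14 had a library far from the other 5; the threshold is one that chance passes in about 1 in 20 groups of values alike, and each of these groups holds both library sets. WT replicate 5 had 208 CPM of Tnni2, a troponin of fast muscle, 64.0 CPM of Ak1, an adenylate kinase abundant in muscle, 5733 CPM of summed skeletal muscle markers and 328 CPM of summed stromal markers, each the highest of its group. WT replicate 1 had the lowest Kdm5d, at 0 CPM, the lowest sum of erythroid and megakaryocyte markers, at 138 CPM, and the highest sum of sex-linked genes, at 534 CPM.

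KO replicate 2 had the highest Cxcl1 of its group, at 21.01 CPM, and stood apart for Me1, at 10.5 CPM, for the neutrophil markers, with the lowest sum at 296 CPM, and for the sex-linked genes, with the highest sum at 200.4 CPM. WT replicate 6 stood apart for Socs1, at 90.9 CPM, and for Il10, at 27.2 CPM. KO replicate 5 stood apart for Cish, an inhibitor of STAT5 signalling, at 5.24 CPM.

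Within set B the difference between the labels itself differed between treatments by edgeR's test of the interaction. The test called 669 genes between 8 h and controls and 422 genes between 8 h and 2 h.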

How the results depend on the processing

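No paired analysis was possible because the labels carry no replicate numbers. The pooled count of 13 called genes was 39 when scaled by library totals alone, 8 with no count filter, 94 with the DESeq2 Wald test, 29 with limma-voom, 0 in a fit of the 12 libraries alone and 0 with a minimum log2 fold change of 1. It was 151 with library set as a term, 1064 for the average of both sets and 26 without the 6 BMDM-labelled libraries. Chosen after seeing the data, set as a term without WT replicate 5 gave 27, and leaving out WT replicates 1 and 5 together gave 2. Leaving out 1 library gave 2 to 112. Set A's 13 calls became 6 in a fit of its own libraries, and 7 to 21 without 1 library (7 without WT replicate 1, 8 without KO replicate 6, 21 without KO replicate 2). Set B's 2220 became 4042 in a fit of its own libraries and 1514 to 1772 without 1 library. The difference between 8 h and controls was called for 3 genes with set as a term. The cause of these changes was not tested. Called genes of the pooled comparison kept their direction in every alternative run, and the call was kept in 224 gene-by-alternative values and lost in 100.

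Directions turned for these values, of which only that of Tnni2 in set B was called. Socs3 was at -0.0080 by library totals and between -0.0299 and 0.16 without 1 library (below 0 without WT replicate 2 or KO replicates 3, 4 or 5). Rela was at -0.0106 by library totals, and in set B at -0.0754 by library totals and between -0.0153 (without WT replicate 5) and 0.0491 without 1 library. Cd79b was at 0.0895 with limma-voom, 0.00144 for the average of sets, 0.0685 without the BMDM-labelled libraries, 0.20 with set as a term and no WT replicate 5, 0.000286 without WT replicates 1 and 5, and between -0.20 and 0.19 without 1 library. Kit was at 0.0274 with set as a term and no WT replicate 5, 0.0387 without WT replicates 1 and 5, and between -0.53 and 0.12 without 1 library. Clspn, at 0.97 in the main comparison and between 0.61 and 1.22 without 1 library, was at -0.0874 with limma-voom and -0.0478 for the average of sets. Slc40a1 lay between -0.60 and 0.12 without 1 library. In set B, the called muscle gene Tnni2 lay between -5.0 and 0.36 without 1 library, the latter without WT replicate 5. Depth limits Nos1, with at most 22 counts in a library.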

Other observations

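Receptors that macrophages use to take up particles were called in both directions in set B after LPS for 8 h. Of 22 scavenger and phagocytic receptors, 4 were higher and 5 lower. The Fc receptors Fcgr1 and Fcgr4, which bind antibody-coated particles, were higher, with Fcgr4 at 580.3, 598 and 575 CPM in the KO-labelled and 320.4, 313 and 316 CPM in the WT-labelled libraries (log2 fold change 0.89, SE 0.17, adjusted p = 0.000282). The C-type lectins Clec4e and Clec4n, which sense mycobacterial and fungal sugars, were lower, with Clec4n at 23.7, 25.7 and 23.6 CPM against 52.3, 52.6 and 48.1 CPM. The counts were 3 and 4 without WT replicate 5, where 11.7% of all genes were called, against 17.1% with it. Among 16 complement genes, C3ar1, the receptor of C3a, was higher and C5ar1, that of C5a, was lower, by log2 fold changes of 0.42 and -0.67.

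Genes of prostaglandin and leukotriene synthesis had 2 calls of 15 in set B, both lower (Ptgs2 and Ptges), where 17.1% of all genes were called. Ptges, a synthase of prostaglandin E, had 233, 258 and 244 CPM against 372.6, 374.5 and 356 CPM (log2 fold change -0.59, SE 0.14, adjusted p = 0.00441). Of 26 lysosomal genes 4 were higher, with Ctsl, a cysteine protease, at 0.41, and 2 lower, with Tfeb, a regulator of lysosomal genes, at -0.58 on the log2 scale. Leaving out WT replicate 5, these counts were 3 and 1. Of all genes 17.1% were called in set B and 11.7% without that library. In set A none of the scavenger receptor, complement, prostaglandin or lysosomal genes tested was called by edgeR.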
